A study of Neurospora crassa with 6 samples.

Results

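The os2 mutant and the wild type (wt) of Neurospora crassa were compared after heat shock (HS, 45°C for 2 hr). The comparison, called os2/wt HS here, was the log2 ratio of the FPKM of each gene in the os2 HS library over that in the wt HS library. FPKM is the number of sequenced fragments scaled for the length of the transcript and for the library. Genes averaging 1 FPKM or more across the series (6 libraries) were kept, which left 8098 of 9730 genes, and 8081 of these were above 0 in both HS libraries and had a ratio. There was 1 library for each strain and condition, so no ratio had a replicate check, no test was possible, and every difference described here is a difference between libraries.

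In both strains, germinating conidia, 5 hr old at 30°C in liquid Vogel's medium with 0.05% glucose, were the starting material. From there cultures of each strain either had 1 hr more at 30°C (30), or went to 45°C for 2 hr alone (HS) or with 2-deoxyglucose, a glucose analog that blocks glycolysis (DS, dual stress). The wt was strain OR74A. The os2 strain was UCLA 80A, a point mutant with a truncated, nonfunctional OS-2 protein in an SL4 background. The strains therefore differed in background as well as in os-2, and effects of the background and of the mutation cannot be told apart. Reads of both strains were aligned to the genome of OR74A, so a transcript whose sequence differs in the os2 strain and a transcript that is less abundant there cannot be told apart either. In whole cultures, fewer cells with a transcript and less of it per cell also cannot be told apart.

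OS-2 is the N. crassa counterpart of the Hog1 stress-activated MAP kinase of yeast. Histidine kinases such as OS-1 pass phosphate through HPT-1 to the response regulator RRG-1, and the kinases OS-4 and OS-5 then activate OS-2. The pathway is best known for osmotic stress, where it drives glycerol synthesis, and for its role in the action of phenylpyrrole fungicides. Among its nuclear targets is ASL-1, a bZIP transcription factor of the ATF/CREB family, and cat-1, ccg-1 and bli-3 are among the genes whose expression is known to need the pathway.

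The 6 libraries summed to between 426267 and 899576 FPKM, and os2 HS had the lowest total, against 542178 in wt HS. Part of the gap between the HS libraries lay in a few transcripts. The transcript of ccg-1 held 9.57% of all FPKM in wt HS and 0.049% in os2 HS, and that of NCU04314 held 6.77% and 1.78%. Scaling the libraries to the same total raised every log2 ratio of os2/wt HS by 0.35, and scaling by the median ratio raised it by 0.01. In DS the same-total shift was 0.89. From the steps between the lowest values, 1 fragment was worth 1.28 times as many FPKM in os2 HS as in wt HS. For a gene of 2 kb, counting error alone gave a standard error of the log2 ratio of about 0.44 at 1 FPKM, 0.14 at 10 FPKM and 0.04 at 100 FPKM, and the error between cultures is unknown.

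The strains differed far more in heat than at 30°C. The median size of the log2 ratio, sign left aside, was 0.69 in os2/wt HS (1.61-fold), 0.22 in os2/wt 30 and 0.62 in os2/wt DS. In HS a 2-fold excess in os2 was found for 1321 genes (16.3%) and a 2-fold deficit for 1447 (17.9%), together 34.3% of the genes compared. At 30°C the corresponding counts were 239 (2.99%) and 240 (3%), and in DS they were 917 (11.4%) and 1329 (16.5%). Differences of at least 4-fold in HS were found for 334 genes higher (4.13%) and 502 lower (6.21%) in os2, against 59 (0.739%) and 36 (0.451%) at 30°C. The median log2 ratio was 0.02 in HS. On the deposited scale 5% of genes lay at -2.23 or below and 5% at 1.86 or above. By these limits the lower tail was the longer. The split between higher and lower depended on the scaling, and so did the tails. With the libraries scaled to the same total, the 2-fold counts became 2100 higher and 966 lower. Of the genes past 4-fold in HS on that scale and compared in DS, 543 were higher and 359 lower in os2 HS. The ratio also moved with expression level, from a median of -0.28 in the eighth of the genes with the lowest mean FPKM (1.01 to 3.57) to 0.49 in the eighth with the highest (95.3 to 20421). The part of level in the results for gene lists was not tested, and the stress classes described further on were read in bins of level.

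**Figure D1:**
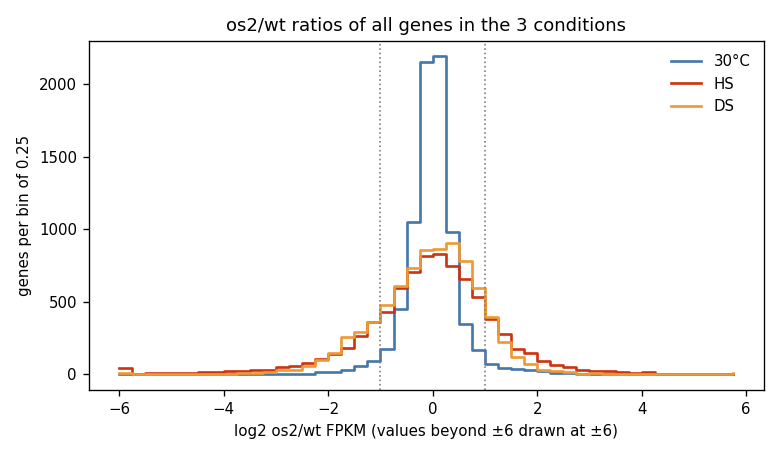
Number of genes per bin of the log2 ratio os2/wt (horizontal), over genes averaging 1 FPKM or more, at 30°C, in HS and in DS. The curve for 30°C is narrow (median size 0.22) and the curves for HS (0.69) and DS (0.62) are broad. On the deposited scale shown, the longer tail of HS is on the side of genes lower in os2.

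The os-2 transcript itself (NCU07024, chromosome IV 4948586-4952179) was lower in os2 under all 3 conditions. It was at 113, 65.1 and 67.1 FPKM in wt 30, HS and DS, and at 34.3, 37.0 and 37.5 FPKM in os2. These gave log2 ratios of -1.72 (30), -0.82 (HS) and -0.84 (DS). A point mutation cannot be read from FPKM, so these values describe the transcript and do not test the genotype.

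Among 14 measured genes of the osmosensing pathway, 2 passed 2-fold upward and 2 downward in os2 HS. These shares (14.3% each) were below those of all genes, 16.3% higher and 17.9% lower. Of the 14 genes, 6 came from transcript tables that the study drew up on these libraries, and of the other 8, 1 was higher and 1 lower. The list median of -0.18 became 0.17 with the libraries scaled to the same total. The kinase cascade moved little. The MAPKKK gene os-4 was at 14.6 FPKM in wt HS against 24.1 in os2 HS, the MAPKK gene os-5 was at 32.0 and 21.3, and the response regulator gene rrg-1 was at 15.1 and 15.3. The histidine kinase gene os-1 was at 30.9 and 49.0, a log2 ratio of 0.67. None of these passed 2-fold.

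The larger differences in this list were those of asl-1, nik-2, dcc-1 and NCU09520. The transcription factor gene asl-1 (NCU01345, chromosome V) was at 21.9, 107 and 43.9 FPKM in wt 30, HS and DS and at 23.2, 30.7 and 58.1 in os2, so that its peak in wt HS was absent from os2 and its log2 ratio in HS was -1.81. The histidine kinase gene nik-2 (NCU01833, chromosome II) was at 4.55, 44.4 and 27.99 FPKM in wt and at 5.33, 11.9 and 23.9 in os2, with a log2 ratio of -1.90 in HS. For both genes the strains were closer at 30°C and in DS than in HS. The hybrid histidine kinase gene dcc-1 was higher in os2 HS (14.8 FPKM in wt HS, 30.4 in os2 HS, log2 ratio 1.04). NCU09520, a putative histidine kinase and response regulator on chromosome III, was at 9.20, 7.77 and 185 FPKM in wt and at 13.9, 28.1 and 45.5 in os2, which gave log2 ratios of 1.85 for HS and -2.02 for DS.

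The deepest deficit of an abundant named transcript in os2 HS was that of ccg-1 (NCU03753, chromosome V 2302672-2303443), a clock-controlled gene that is also induced by glucose starvation. It was at 282, 51909.5 and 12535 FPKM in wt 30, HS and DS, and at 72.0, 209.6 and 414 FPKM in os2. The wt HS library thus held 248 times as much as os2 HS, while the strains were 3.92-fold apart at 30°C and 30.3-fold apart in DS. The blue light-inducible gene bli-3 (NCU07267, chromosome IV) followed with 10.4, 1535 and 212 FPKM in wt and 3.19, 10.4 and 23.03 in os2, 148-fold lower in os2 HS. For both genes wt was above os2 under all 3 conditions, and wt HS was by far the highest library.

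Cell surface and antioxidant genes came next. The predicted cell wall protein gene ncw-6 (NCU00586, chromosome I), which neighbours os-5, was at 8.04, 740.0 and 131 FPKM in wt 30, HS and DS and at 1.98, 7.64 and 16.7 in os2, 96.8-fold lower in os2 HS. The catalase gene cat-1 (NCU08791, chromosome III), a catalase of conidia, was at 3.64, 153 and 48.0 FPKM in wt and at 2.43, 2.20 and 7.85 in os2, 69.6-fold lower. The os2 HS value of cat-1 was the lowest of its 6 libraries, while that of wt HS was the highest. NCU02540, which encodes Pil1, the core protein of the eisosome (a furrow-shaped domain of the plasma membrane), was at 4.62, 681 and 135 FPKM in wt and at 2.58, 16.6 and 37.8 in os2, 40.9-fold lower in os2 HS.

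The other 5 of the 10 named genes lowest in os2/wt HS were 34.5- to 18.8-fold lower. They were cut-1 (NCU04924), NCU11395 (S-hydroxymethylglutathione dehydrogenase, of formaldehyde detoxification), the cell wall protein gene ccg-13 (NCU08907), NCU02124 (a dienelactone hydrolase) and NCU09692 (a phosphatidic acid phosphatase). All but ccg-13 were also lower in os2 in DS, at log2 ratios from -1.50 to -3.47. The gene ccg-13 was at 1.71, 311 and 26.7 FPKM in wt 30, HS and DS and at 0.668, 15.3 and 59.8 in os2, a log2 ratio of -4.34 for HS and 1.16 for DS.

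The glycerol dehydrogenase gene gcy-1 (NCU04923), of the glycerol metabolism that the pathway is known to control, neighbours cut-1 on chromosome IV. It was at 60.3, 211 and 215 FPKM in wt 30, HS and DS and at 53.1, 11.4 and 54.7 FPKM in os2. Its log2 ratios were -0.18 (30), -4.21 (HS) and -1.98 (DS), and os2 HS was the only library in which the transcript was far below its 30°C level. Its paralog gcy-3 (NCU04510) was at 57.0, 691 and 178 FPKM in wt and at 41.0, 169 and 119 in os2, a log2 ratio of -2.03 in HS.

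At the other end of the named genes stood lipid and nucleotide synthesis. The oleate desaturase gene ods (NCU02209, chromosome VII) was at 394, 7.76 and 102 FPKM in wt 30, HS and DS and at 366, 134 and 46.8 in os2, 17.3-fold higher in os2 HS. The fatty acid synthase genes cel-2 (NCU07307) and cel-1 (NCU07308) are neighbours on chromosome IV. The values of cel-2 were 151, 5.51 and 93.8 FPKM in wt and 169, 92.1 and 45.4 in os2, 16.7-fold higher in os2 HS, and cel-1 was 10.5-fold higher. In each case the 30°C libraries were close, wt HS was the lowest library by far, and os2 HS lay between wt HS and the 30°C cultures.

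The first enzyme of purine synthesis is encoded by ad-7 (NCU04216), which was at 83.2, 8.58 and 48.3 FPKM in wt 30, HS and DS and at 104, 110.3 and 56.6 in os2, 12.9-fold higher in os2 HS. The later purine gene ad-3A was 12.2-fold higher, and the arginine genes arg-10 and arg-4 were 10.2- and 8.49-fold higher. The branched-chain amino acid gene ilv-2 was 10.5-fold, fkr-4 16.1-fold and NCU09094 (named for Ipi-1, a ribosome assembly factor in yeast) 12.7-fold higher. For all 10 of the named genes highest in os2/wt HS, the log2 ratio at 30°C lay between -0.11 and 0.33, and in DS ods, cel-1, cel-2, fkr-4, NCU09094 and ilv-2 were at least 2-fold lower in os2 (inside 2-fold with the same total).

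**Figure D2:**
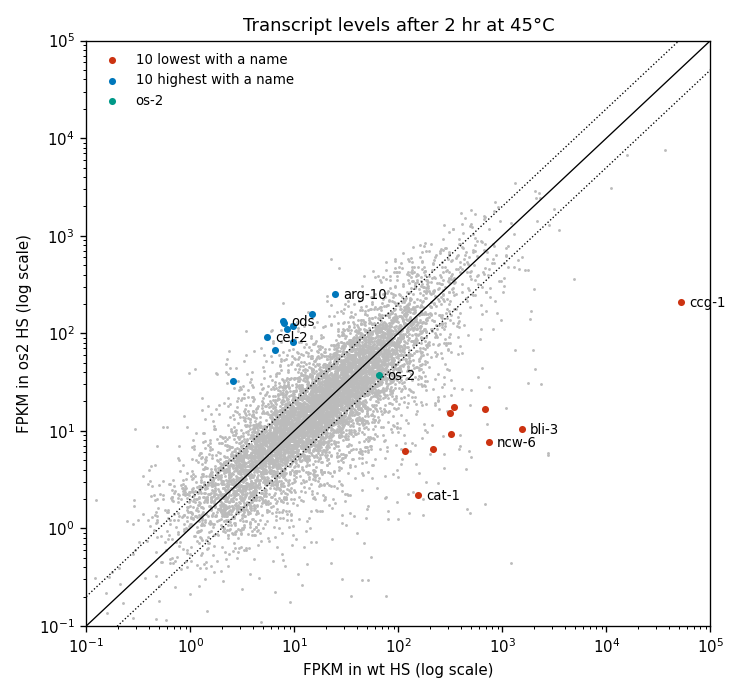
FPKM of each gene in os2 HS (vertical) against wt HS (horizontal), both on log axes, with lines at equality and at 2-fold. The named genes ccg-1 (51909.5 against 209.6 FPKM), bli-3 and cat-1 lie far below the lines and ods, cel-2 and arg-10 above them. Genes below 0.1 FPKM in either library are outside the axes.

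**Figure D3:**
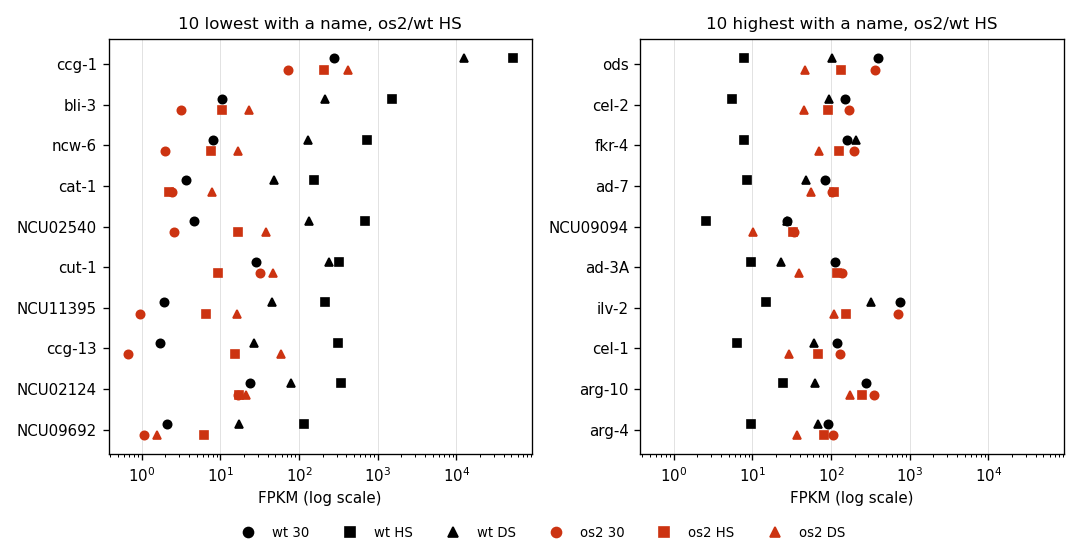
FPKM (log axis) of the 10 lowest (left) and 10 highest (right) named genes in each of the 6 libraries, with wt in black and os2 in red, 1 point per library. The genes lowest in os2/wt HS peak in wt HS and are far lower in os2 HS, as cat-1 is at 153 against 2.20 FPKM. Some of them still rise in os2, as ccg-13 does from 0.668 FPKM at 30°C to 15.3 in HS. The genes highest in os2/wt HS dip in wt HS, as ods does at 7.76 against 134 FPKM.

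Among all genes averaging 10 FPKM or more, the 5 lowest in os2/wt HS had no name in the tables used. NCU00250 (chromosome III) was at 5.33, 1207 and 213 FPKM in wt 30, HS and DS and at 1.16, 0.439 and 0.867 in os2, a log2 ratio of -11.43 in HS. NCU04635, NCU02765, NCU07337 and NCU04267 followed at -8.92, -8.85, -8.57 and -8.53. In wt HS these 5 transcripts were at 75.7 to 2732 FPKM, and in os2 HS at 0.204 to 5.93 FPKM. All 5 were also lower in os2 in DS, at log2 ratios from -4.24 to -7.94. At 30°C NCU00250, NCU04635 and NCU07337 were already lower in os2, at -2.20, -2.67 and -2.58. NCU02765 was at -0.44 there, and NCU04267 at -0.16 but below 0.1 FPKM in both strains. The 5 highest were NCU08968, NCU02545, NCU04165, NCU07942 and NCU00309, at log2 ratios of 5.32 down to 4.74. NCU02545 was at 27.3, 0.292 and 16.9 FPKM in wt and at 23.7, 10.5 and 0.355 in os2, so it was close to 0 in wt in HS and in os2 in DS.

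The differences in heat were mostly not present at 30°C. Of all genes compared there, 2.99% were at least 2-fold higher in os2 and 3% at least 2-fold lower. Of the 1447 genes at least 2-fold lower in os2 HS, 1389 could be compared at 30°C, where 146 (10.5%) were also at least 2-fold lower, 57 were at least 2-fold higher and the median log2 ratio was -0.16. Of the 1321 genes at least 2-fold higher in HS, 58 (4.41%) were also higher at 30°C and 5 were lower. Of the genes at least 4-fold lower in HS, 469 could be compared at 30°C and 88 (18.8%) were at least 2-fold lower there. Of those at least 4-fold higher in HS, 332 could be compared and 19 (5.72%) were at least 2-fold higher. In DS, where 11.4% of all genes were at least 2-fold higher and 16.5% lower, 362 (25.1%) of the genes lower in HS were lower again and 109 were higher. Of the genes higher in HS, 145 (11.0%, close to the share of all genes) were higher again in DS and 365 (27.7%) were at least 2-fold lower. Among the 502 genes at least 4-fold lower in HS, 224 (44.8%) were at least 2-fold lower in DS and 14 were higher, whereas of the 334 genes at least 4-fold higher in HS, 40 were higher in DS and 113 (33.9%) were lower. These DS counts depended on the scaling. With the libraries scaled to the same total, 46% of all genes were at least 2-fold higher and 4.1% lower in os2 DS. On that scale, of the genes at least 4-fold lower in HS 25.6% were lower and 12.8% higher in DS, and of those at least 4-fold higher in HS 31.5% were higher and 6.63% lower.

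Genes were then grouped by their response to DS in both strains. The DS/30 ratios use none of the HS libraries, but the filter of 1 FPKM is on the mean of all 6 libraries, HS included. DS raised 1158 genes by 2-fold or more over 30°C in each strain, and their median FPKM in wt was 3.13 (30), 30.2 (HS) and 16.2 (DS). The same genes in os2 had medians of 3.01 (30), 10.5 (HS) and 16.7 (DS). On the deposited scale the strains thus had nearly equal medians at 30°C and in DS, and os2 HS lay well below wt HS. Scaling to the same total adds 0.89 to every log2 ratio in DS, so the near-equality in DS depended on the scaling. The class also required a rise in DS in both strains. The median log2 ratio in HS was -1.07, and 604 of 1157 genes (52.2%) were at least 2-fold lower in os2 against 26 (2.25%) higher, where all genes gave 17.9% and 16.3%. Without the filter on mean FPKM the median was -1.02.

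The 695 genes that DS lowered by 2-fold or more in each strain showed the opposite. Their median FPKM was 31.1, 7.05 and 10.4 in wt 30, HS and DS and 32.2, 13.2 and 8.69 in os2. The median log2 ratio in HS was 0.94, with 326 genes (46.9%) at least 2-fold higher in os2 and 23 (3.31%) lower. The remaining 6229 genes had a median of 0.08. The order held in each of 4 bins of mean FPKM. There the medians of the stress-raised genes ran from -0.73 to -1.33 and those of the stress-lowered genes from 0.58 to 1.46. The bins used the mean over all 6 libraries, HS included, so they are not independent of the HS ratio. By the class medians of FPKM, os2 HS lay nearer to the 30°C value than wt HS did, for raised and for lowered genes alike.

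**Figure D4:**
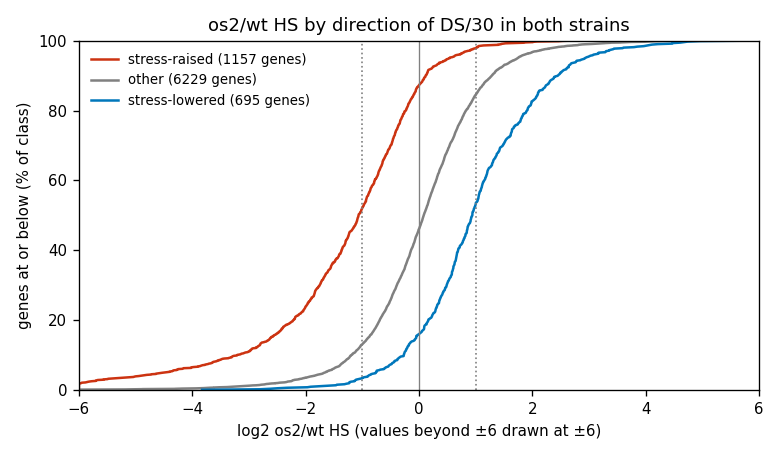
Cumulative share of genes (percent of the class, vertical) at or below each log2 ratio os2/wt HS (horizontal), for genes grouped by their DS/30 ratio in both strains, with dotted lines at 2-fold. Stress-raised genes centre at -1.07, stress-lowered genes at 0.94 and the others at 0.08.

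Genes were also read in 32 lists by function. The lists were drawn up with results of these data known, and many hold genes that the study picked from these same libraries. Their direction is therefore not independent evidence, and counts without the genes of those transcript tables are given beside the lists. The counts below are of genes past 2-fold, and over all genes these shares were 16.3% (higher) and 17.9% (lower). Where the sign of a list median turned with the libraries scaled to the same total, this is stated. Where a pair of FPKM values is set side by side, wt HS comes first and os2 HS after it.

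Light, clock and conidiation genes had a median of -0.69, with 17 of 37 at least 2-fold lower and 2 higher. Without ccg-13 and eas, which are in the study's transcript tables, 15 of 35 were lower and 2 higher (median -0.67). In N. crassa these genes prepare aerial hyphae and spores, and many respond to blue light or to the clock. The cultures were labelled as germinating conidia, and in wt 30 the conidial genes con-10, con-6 and con-8 were at 34.9, 6.40 and 21.5 FPKM. The conidiation gene con-10 was at 34.9, 585 and 35.7 FPKM in wt 30, HS and DS and at 25.6, 35.4 and 40.4 in os2, so that wt HS alone stood out (log2 ratio -4.05). The gene con-6 was at 226 FPKM in wt HS and 18.3 in os2 HS, and con-8 at 313 and 79.1. The hydrophobin gene eas, the carotenoid genes al-2 and ylo-1, the transcription factor genes csp-1 and csp-2 of conidial separation, the opsin gene nop-1 and the phytochrome gene phy-1 were all lower, at log2 ratios of -1.17 to -1.86, while the carotenoid gene al-1 was at 0.80. The clock genes frq, wc-1 and wc-2 were close between strains: frq was at 91.4 and 82.1 FPKM, wc-1 at 26.3 and 29.3, and wc-2 at 25.3 and 31.7. At least 2-fold higher in os2 HS were frh, for an RNA helicase that binds FRQ, at 1.33, and the transcription factor gene adv-1 at 1.51.

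Both eisosome genes were lower in os2 HS. Besides Pil1, NCU07495, which encodes its partner Lsp1, was at 13.3, 171 and 65.3 FPKM in wt 30, HS and DS and at 14.6, 40.4 and 78.0 in os2, a log2 ratio of -2.08. Of 41 cell wall genes, 13 were at least 2-fold lower and 3 higher, with a median of -0.16 that became 0.19 with the same total. Without the 8 transcript-table genes, 7 of 33 were lower and 3 higher, with a median of 0.00. The lower genes included gel-1 (-2.25), chs-6, for a chitin synthase (83.3 against 23.6 FPKM), and NCU00247, for a regulator of chitin synthesis (135 against 7.48 FPKM). Higher in os2 HS were chs-1 (1.67), do (1.21) and acw-3 (1.10). The list was thus mixed, with deep deficits of some members and a middle near 0.

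Antioxidant genes had a median of -0.33 (0.02 with the same total), with 8 of 21 at least 2-fold lower and 1 higher. Without the 8 genes from the study's transcript tables, 3 of 13 were lower and 1 higher. After cat-1 the lowest were mig-5 (NCU01759; 276 against 30.1 FPKM), cat-4 at -2.19, mig-4 at -1.61 and mig-8, for a pirin, at -1.55. The catalase-peroxidase gene cat-2 was at 7.13 and 717 FPKM in wt 30 and HS and at 13.9 and 578 in os2, and the superoxide dismutase gene sod-1 was at 432 and 510.3 FPKM in wt and os2 HS. The deficit was therefore held by some enzymes of the list and not by cat-2 or sod-1.

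Detoxification genes had a median of -0.49, with 7 of 26 at least 2-fold lower and 3 higher. Without the 12 genes from the transcript tables, 1 of 14 was lower and 1 higher (median -0.25), below the shares over all genes. Of the 4 lowest members, 3 belonged to formaldehyde and formate handling, and the other was NCU02124. NCU11395 was at 1.91, 216 and 45.6 FPKM in wt 30, HS and DS and at 0.963, 6.57 and 16.1 in os2. NCU01127, a glutathione-dependent formaldehyde-activating enzyme, was at 106 FPKM in wt HS and 6.58 in os2 HS, and fdh, for formate dehydrogenase, at 324 and 33.1. The other S-hydroxymethylglutathione dehydrogenases, NCU00028 and NCU06652, were at log2 ratios of 0.26 and 0.65, so the enzyme family did not move together. The glutathione S-transferase gene gst-4 was higher in os2 HS, at 34.3 against 146 FPKM.

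Genes of carbon metabolism differed in direction. Fermentation genes had a median of -1.76, with 6 of 9 at least 2-fold lower and none higher, and 2 of the 4 that did not come from the transcript tables were lower. The alcohol dehydrogenase gene adh-1 was at 8.31, 160.3 and 197 FPKM in wt 30, HS and DS and at 4.74, 47.4 and 94.0 in os2. NCU02397, a pyruvate decarboxylase in the study's naming but ilv-5 in RefSeq, so that its place in this list is in doubt, was at 262 FPKM in wt HS and 28.2 in os2 HS, while the pyruvate decarboxylase gene cfp was at 19.8 and 30.2. Of the 8 genes of gluconeogenesis and the glyoxylate cycle, 3 were lower and 1 higher, with a median of -0.55. All 3 came from the transcript tables, and of the other 5 none was lower and 1 was higher. The gluconeogenic genes acu-6 (PEP carboxykinase, 184 against 26.2 FPKM) and fbp-1 (fructose bisphosphatase, 114 against 28.6 FPKM) were among the lower, and the glyoxylate genes acu-3 and acu-9 were at -0.54 and -0.52. Of 8 glycogen and trehalose genes, 3 were lower and none higher (median -0.46), and 2 of the 6 without transcript-table genes. These were the trehalase gene tre-1 (121 against 17.4 FPKM), the glucoamylase gene gla-1 (381 against 134 FPKM) and the trehalose synthase gene ccg-9 (-1.48), and tre-1 and gla-1 were already lower in os2 at 30°C, at -1.61 and -1.28. The glycerol list gave 2 lower and 1 higher of 6, and 5 of the 6 came from the transcript tables. The 1 gene from another source was inside 2-fold, at -0.32.

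Glycolysis, by contrast, had a median of 1.28, with 6 of 10 genes at least 2-fold higher and 1 lower in os2 HS, and 4 of 7 without the transcript-table genes. The pyruvate kinase gene ace-8 was at 953, 72.0 and 748 FPKM in wt 30, HS and DS and at 1125, 378 and 338 in os2. The glyceraldehyde 3-phosphate dehydrogenase gene gpd-1 was at 552 FPKM in wt HS against 1656 in os2 HS. The exception was NCU02702, for glucokinase, at 117 and 54.9. The TCA cycle and pyruvate dehydrogenase list had a median of 0.99, with 10 of 20 higher and none lower, and 6 of 15 without transcript-table genes. The pyruvate dehydrogenase gene ace-3 was at 344, 21.4 and 222 FPKM in wt and at 313, 151 and 103 in os2 (log2 ratio 2.82). For ace-3, as for ace-8, wt HS was the lowest of the 6 libraries.

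In the respiratory chain, 13 of 23 genes were at least 2-fold higher in os2 HS and 1 lower (median 1.11), and without the 7 transcript-table genes 8 of 16 were higher and 1 lower. The cytochrome c gene cyc-1 was at 1976, 125 and 4226 FPKM in wt 30, HS and DS and at 2225, 554 and 1068 in os2, which gave log2 ratios of 2.14 for HS and -1.98 for DS. Complex I, with 29 measured subunits and assembly genes, had a smaller median of 0.35, with 2 higher and none lower. The alternative oxidoreductases, which bypass proton-pumping complexes, were mixed, with 3 of 9 higher and 2 lower (2 and 1 of 6 without transcript-table genes). Among them the external NADH dehydrogenase gene nde-1 was at 6.04, 75.2 and 38.0 FPKM in wt and at 6.11, 5.28 and 20.4 in os2, and the alternative oxidase gene aod-1 was higher in os2 HS, at 30.9 against 89.9 FPKM.

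Biosynthesis and translation gave the highest medians. Of 21 genes of purine, arginine and polyamine synthesis, 16 were at least 2-fold higher in os2 HS and none lower, with a median of 1.97, and without the 9 transcript-table genes 8 of 12 were higher (median 1.70). The polyamine genes spe-1 (ornithine decarboxylase), spe-2 (S-adenosylmethionine decarboxylase) and spe-3 (spermidine synthase) were at 37.4, 7.68 and 16.4 FPKM in wt HS and at 199, 27.9 and 130.0 in os2 HS. The argininosuccinate synthase gene arg-1 was at 459, 97.8 and 108 FPKM in wt 30, HS and DS and at 403, 383 and 188 in os2. In DS the median of this list was 0.04.

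Of 13 genes of the cytosolic ribosome and translation, 12 were higher and none lower in os2 HS (median 1.81), and 8 of 9 without transcript-table genes. The ribosomal protein gene crp-7 was at 8413, 669.7 and 4551 FPKM in wt 30, HS and DS and at 9006, 1484 and 1326 in os2, and NCU06661, for ribosomal protein L22, was at 1527, 32.7 and 297 and at 1917, 190.4 and 92.6. The elongation factor gene tef-1 was at 1312 FPKM in wt HS and 3488 in os2 HS. For crp-7 the os2 HS and DS libraries were alike, while wt was lower than os2 in HS and higher in DS. The list median in DS was -1.65, the opposite sign (-0.75 with the same total).

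Of 14 genes of fatty acid, sterol and ceramide synthesis, 8 were higher and 1 lower (median 1.46), and 13 of the 14 came from the transcript tables. The 1 gene from another source was inside 2-fold and of the opposite sign, at -0.26. Besides ods and the cel genes, the C-8 sterol isomerase gene erg-1 was at 1.80. Genes of lipid breakdown went the other way, with 7 of 12 lower and 2 higher (median -1.31, or -0.96 with the same total), 11 of them from the transcript tables. NCU10359, a neutral ceramidase, was at 0.514, 40.3 and 9.38 FPKM in wt 30, HS and DS and at 0.328, 0.900 and 3.68 in os2, a log2 ratio of -5.48. The peroxisomal fatty acid oxidation gene fox-2 was at -1.38.

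Sulfur metabolism had 12 of 27 genes higher and 2 lower (median 0.60), and 6 of 12 higher and none lower without transcript-table genes. The S-adenosylmethionine synthetase gene eth-1 was at 617, 37.5 and 362 FPKM in wt 30, HS and DS and at 573, 125 and 109 in os2. NCU10020, named as a methionine synthase, went the other way, at 274 FPKM in wt HS and 35.6 in os2 HS, and was already lower at 30°C (42.2 against 13.3 FPKM). Nitrogen metabolism was mixed, with 9 of 29 lower and 4 higher, and its median of -0.23 became 0.11 with the same total. Of its genes 19 came from the transcript tables, and the other 10 had the opposite sign, with a median of 0.84, 3 higher and 2 lower. The catabolic glutamate dehydrogenase gene gdh-1 was at 37.9, 253 and 109.5 FPKM in wt and at 37.2, 692 and 153 in os2, so os2 HS was its highest library. The biosynthetic gene am was at 2388 FPKM in wt 30, 40.8 in wt HS and 59.3 in os2 HS. NCU06803, a glutamate decarboxylase, was at 34.0 against 2.20 FPKM.

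The pentose phosphate list of 6 gave 1 higher and 2 lower, and both lower genes came from the transcript tables. NCU07143 (6-phosphogluconolactonase) was at 30.7 against 1.89 FPKM and NCU06142 (transaldolase) at 17.1 against 2.70, while ppm-2 (6-phosphogluconate dehydrogenase) was higher in os2 HS, at 134 against 446 FPKM.

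Protein turnover gave unlike results in its branches. All 7 genes of the ubiquitin list came from the transcript tables, and 5 were lower and none higher (median -1.30, or -0.95 with the same total). They included NCU06856, of ubiquitin fusion degradation (199 against 45.6 FPKM), and rpn-4, whose yeast counterpart is the transcription factor of proteasome genes (228 against 64.0 FPKM). The polyubiquitin gene ubi was at 658, 1044 and 8771 FPKM in wt 30, HS and DS and at 750.0, 531 and 2676 in os2. Among 30 proteasome genes, rpn-4 was the only member past 2-fold and the only member in the transcript tables, and the median was 0.13. The 14 genes of the vacuolar ATPase all stayed within 2-fold (median 0.21). Of 18 autophagy and vacuole genes, 8 were lower and 1 higher (median -0.91), but of the 7 from other sources 2 were lower and 1 higher, with a median of -0.11. NCU08766, for Atg17, which scaffolds the start of the autophagosome in yeast, was at 471 FPKM in wt HS and 96.7 in os2 HS, apg-1, for the kinase Atg1, at 59.3 and 37.9, and atg-8 at 1094 and 628.

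The chaperones as a list did not separate the strains in HS, with 2 of 21 higher, 2 lower and a median of 0.14. Without transcript-table genes, 2 of 15 were higher and none lower. In DS 10 were lower in os2, none was higher and the median was -0.77. Scaling to the same total adds 0.89 to every log2 ratio in DS, so the sign of that DS median turned. The small heat shock protein gene hsp30 was at 49.9, 11079 and 80639 FPKM in wt 30, HS and DS and at 43.0, 3112 and 27607 in os2, a log2 ratio of -1.83 in HS. The disaggregase genes hsp78 of mitochondria and hsp98 of the cytosol were at 371 and 443 FPKM in wt HS and at 92.6 and 232 in os2 HS, of which only hsp78 reached 2-fold. The genes hsp70-1 and hsp80 (for Hsp90) were close, at 2268 and 2087 FPKM in wt HS and 2724 and 2462 in os2 HS. A further Hsp70 gene, hsp70-2, was at 1166 FPKM in wt 30, 134 in wt HS and 593 in os2 HS. No chaperone gene of the list other than hsp30 and hsp78 was at least 2-fold lower in os2 HS.

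Signaling and structural genes were mostly close. Of 9 genes of the cell wall integrity and fusion MAP kinase pathways, only mak-1 passed 2-fold, at 165, 10.8 and 182 FPKM in wt 30, HS and DS and at 139, 48.3 and 47.8 in os2. In the cAMP and calcium list of 23, 4 were higher and 3 lower (3 and 2 of 19 without transcript-table genes). The G protein alpha subunit gene gna-1 was at 17.0 against 64.2 FPKM, the kinase gene camk-4 at 168 against 48.1 and NCU07966, for a calcium ATPase, at 165 against 42.8. In the cytoskeleton list 3 of 15 were higher and none lower, among them the actin gene act (384 against 928 FPKM) and the tubulin gene tba-1 (39.0 against 107 FPKM). None of 9 histone genes passed 2-fold, and their median of -0.09 became 0.26 with the same total. In the cell death list of 12, 3 were lower and 2 higher (1 and 1 of 4 without transcript-table genes), with the transcription factor gene vib-1 at 9.97 against 34.2 FPKM.

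**Figure D5:**
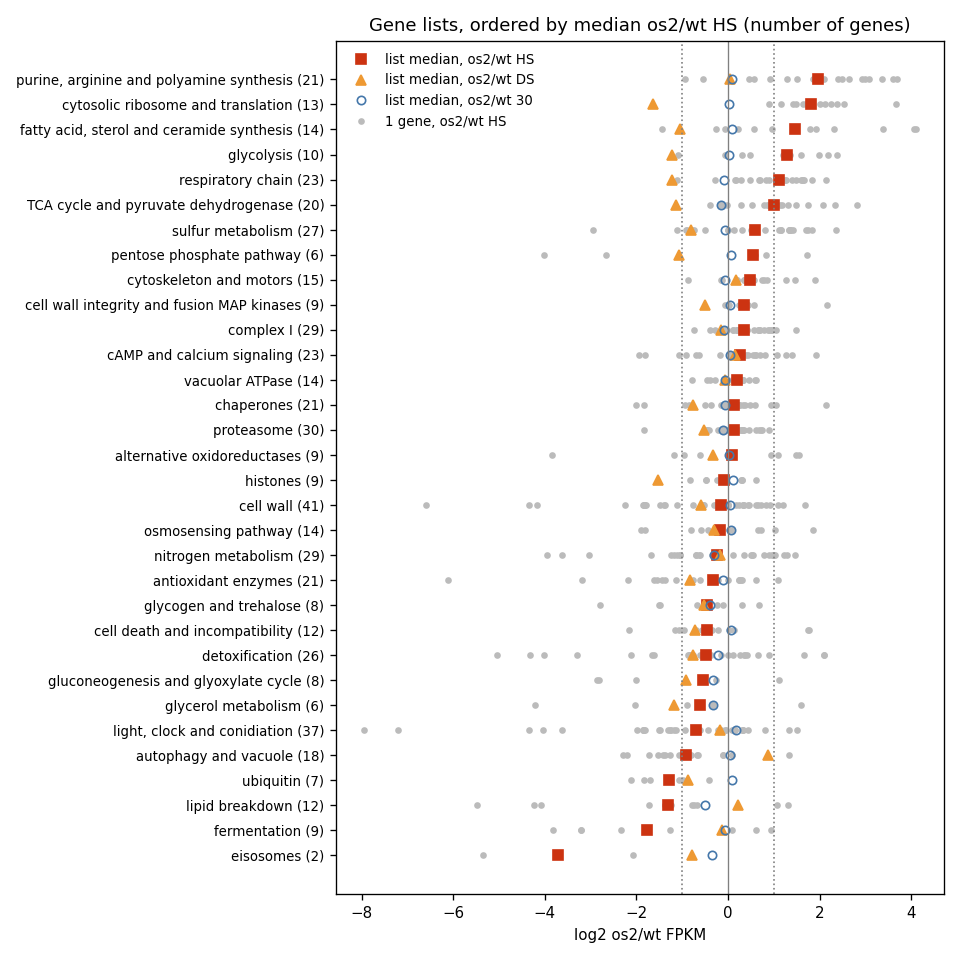
Log2 ratio os2/wt HS of each member of the gene lists (grey points) with the list median in HS (squares), DS (triangles) and at 30°C (circles), and dotted lines at 2-fold. In HS, purine, arginine and polyamine synthesis (1.97) and the ribosome (1.81) lie highest, and fermentation (-1.76) and the eisosome pair (-3.72) lie lowest.

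In 10 genes the os2 HS library was below 0.1 FPKM while wt HS was at 5 FPKM or more, and the reverse was found for 1 gene. None of the 11 had a name. NCU06420 (chromosome III) was at 189, 31.9 and 363 FPKM in wt 30, HS and DS and was listed at 0, 0 and 0.0956 in os2. NCU01011 (chromosome V) was at 1.00, 74.2 and 172 FPKM in wt and at 0 in all 3 os2 libraries. NCU07626, at 107 FPKM in wt HS, and its neighbour NCU07627, at 10.6, were both below 0.1 in all 3 os2 libraries. In total 6 of the 10 were near 0 in os2 under every condition. In wt 30 NCU06420 was far above 0, whereas NCU07627 was at 0 and NCU07626 at 0.283 FPKM, so for these neighbours the strains were apart only in the cultures at 45°C. The other 4 were above 0.1 FPKM in os2 at 30°C or in DS. NCU17101, the gene near 0 in wt HS, was at 11.4 FPKM in both strains at 30°C, at 6.67 in os2 HS and at 4.99 and 4.62 in wt and os2 DS. An FPKM of 0 can also be a failed estimate, and no ratio is given for these genes.

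Genes far lower in os2 HS were unevenly spread over the genome. The coordinates are those of the NC12 assembly. The share of genes at least 4-fold lower ran from 4.19% on chromosome III to 7.33% on IV, 8.32% on VII and 10.6% on VI, against 6.21% of all genes, whereas the share at least 4-fold higher ran only from 3.33% on IV to 4.63% on II. Neighbours also occurred together. There were 25 runs of at least 3 consecutive genes at least 4-fold lower, with 85 genes in all and up to 5 in a run, and 1 run of 3 genes higher. The number of lower runs was 14 with the same total and 9 among genes averaging 10 FPKM or more, and that of higher runs was 5 and 0. Some neighbours in the runs overlap in their coordinates, among them NCU05631 with NCU17083 and, in the higher run, NCU04437 with NCU10965. Whether such neighbours share fragments was not tested. NCU17083 was listed at 6.04e-09 FPKM in os2 HS.

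A run with deep deficits was on chromosome VI (3537954-3547617), from NCU05159 to NCU05156, with a median log2 ratio of -6.07. Its gene NCU05157 was at 2.05, 126 and 35.3 FPKM in wt 30, HS and DS and at 1.73, 1.45 and 5.93 in os2, and NCU05158 was at 0, 34.8 and 26.2 and at 0.107, 0.202 and 3.08. On chromosome III (3166373-3174124) the 4 genes from NCU00247 to NCU00250 formed a run with a median of -3.49, and on chromosome I (1159012-1172483) the 5 genes from NCU02126 to NCU02122, with the dienelactone hydrolase gene NCU02124 among them, had a median of -2.58. At 30°C the latter pair of runs had median log2 ratios of -0.28 and -0.44, but NCU00250 was already at -2.20. The run of higher genes, NCU04437, NCU10965 and NCU04436 on chromosome IV, was already higher in os2 at 30°C, at log2 ratios of 0.45, 2.24 and 2.11.

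Around os-2 itself, 3 of 24 genes (12.5%) within 50 kb were at least 4-fold lower in os2 HS and none was at least 4-fold higher. The share at least 4-fold lower was 6.21% of all genes and 7.33% on chromosome IV. Of the 12 genes at 50 to 100 kb none was lower. On the same chromosome the lower share was 5.56% of 54 genes at 100 to 250 kb, 9.28% of 97 at 250 to 500 kb, 13.2% of 220 at 500 to 1000 kb and 5.55% of 793 beyond 1000 kb, so it did not follow distance in 1 direction. Background and mutation cannot be told apart by these counts.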

How the data were processed

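The deposited table held FPKM values, 1 column per library. The authors made poly(A)-selected TruSeq libraries, sequenced paired ends (CASAVA 1.8.2), used FastQC for read quality and TopHat for alignment to the OR74A genome and Broad transcriptome, and estimated FPKM with Cufflinks. How the columns were normalized between libraries is not given in the sources used here. Their median-ratio factors lay between 1.00 and 1.02, so the columns were already close to a median-ratio scale. The study's methods give total read numbers, which were not used here.

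Log2 ratios were computed from the deposited FPKM without a pseudocount, for genes averaging 1 FPKM or more, and counted at 2-fold and 4-fold (Python 3.11.15, pandas 2.3.3). The step was run on simulated counts with planted 4-fold changes, which checks the arithmetic and not the error between cultures. Values of 1 row that names no gene were not used. With 1 library per strain and condition there was no test. Symbols and NC12 coordinates came from the RefSeq gene table, which matched 9729 of 9730 identifiers. Named genes were os-2, members behind a statement on their list, the 10 highest and 10 lowest named genes and the 5 highest and 5 lowest among genes averaging 10 FPKM or more, and named genes near 0 in 1 HS library. The near-0 genes without a name and the run genes were named after their values were seen. The comparison and the gene lists were chosen with earlier results of these data known. Other scalings, pseudocounts and filters were tried.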

Additional observations from a re-analysis of the deposited data

Results flagged for a closer look

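Some results went in opposite directions in os2/wt HS and os2/wt DS, which share no library. With 1 library on each side the difference between the conditions was not tested for any of them. The medians of 4 lists were past 2-fold in each condition and opposite in sign between HS and DS. These were the cytosolic ribosome and translation (1.81 in HS and -1.65 in DS), fatty acid, sterol and ceramide synthesis (1.46 and -1.06), glycolysis (1.28 and -1.23) and the respiratory chain (1.11 and -1.23). In the fatty acid, sterol and ceramide list, 13 of the 14 genes came from the study's transcript tables, and the other was at -0.26 in HS. Scaling to the same total adds 0.35 to every log2 ratio in HS and 0.89 to every ratio in DS. The signs stayed, but the DS medians of these 4 lists then lay inside 2-fold, at -0.75, -0.16, -0.34 and -0.34 in the order given.

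Among the named genes, ccg-13 was the only gene of those lowest in os2 HS that was higher in os2 in DS (log2 ratios -4.34 and 1.16). Of the named genes highest in os2 HS, 6 were at least 2-fold lower in DS. The oleate desaturase gene ods was at 4.11 and -1.12, the fatty acid synthase genes cel-2 and cel-1 at 4.06 and -1.05 and at 3.39 and -1.06, and ilv-2 at 3.39 and -1.57. The other members were fkr-4 at 4.01 and -1.58 and NCU09094 at 3.67 and -1.41. Of the genes without a name, NCU02545 was at 5.17 and -5.57, NCU07942 at 4.82 and -1.22, and NCU00309 at 4.74 and -1.31. With the same total, 8 of these 10 genes lay inside 2-fold in DS, and ccg-13 (2.06 in DS) and NCU02545 (-4.68) were still past 2-fold and opposite in sign.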

How the results depend on the processing

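Scaling to the same total gave 2100 genes at least 2-fold higher in os2 HS in place of 1321 and a median of 0.36 in place of 0.02, and 2 lists with a median of -1 or lower in place of 4 (ubiquitin -0.95, lipid breakdown -0.96). The stress-raised median became -0.78 (-0.96 with the upper quartile) and the stress-lowered median 1.46 (1.03 with the upper quartile, 1.06 with genes averaging 10 FPKM or more, 1.42 with classes at 4-fold). With genes averaging 10 FPKM or more, 891 of 5585 genes were at least 2-fold lower in place of 1447 of 8081, so fewer genes were compared. The share of lower genes also lower at 30°C was 6.13% with a pseudocount of 1 in place of 10.5%, and the share of higher genes also higher was 2.56% with a pseudocount of 1 and 1.48% with genes averaging 10 FPKM or more, in place of 4.41%. Genes near 0 in wt HS numbered 2 with the same total and 0 at exactly 0. Runs of lower genes numbered 14 with the same total, 9 with genes averaging 10 FPKM or more and 88 at 2-fold, in place of 25, and runs of higher genes 5 with the same total, 0 with a pseudocount of 1, 4 without the filter, 0 with genes averaging 10 FPKM or more and 53 at 2-fold, in place of 1. The share lower on chromosome VI was 22.7% at 2-fold, close to 22.5% on VII, where all genes gave 17.9%. Why these values moved was not tested beyond the scaling and filter themselves. No ratio of a gene named by rank changed side of 2-fold. No paired analysis was possible because there was 1 library per strain and condition. The planned search for promoter motifs was not run, since no promoter sequences were used here.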
